A study of Mus musculus with 4 samples.

Results

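CD73, encoded by Nt5e, and 8 other genes of ectonucleotidases, phosphatases and adenosine handling were followed in mouse embryonic stem cells labelled as UTX knockout or UTX conditional knockout. UTX is the histone H3 lysine 27 demethylase encoded by the X-linked gene Kdm6a. The genes were Nt5e, Entpd1, Entpd5, Enpp1, Enpp3, Alpl, Ada, Adora2b and Slc29a1. They were chosen by function, but from a series in which the difference between the groups was already known and Nt5e was among the genes lower in KO lines. The values of these genes in KO against cKO lines are therefore a description, and no p-value is given for them. A probe set, the group of short probes that measures a transcript, was used only where the array's annotation assigned it to 1 gene. Of the 9 genes 7 had such a probe set, 20 probe sets in all, out of 18194 genes and 34958 probe sets. Enpp1 and Adora2b had none and were not analysed here.

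The groups were 2 UTX knockout (KO) lines and, as controls, 2 UTX conditional knockout (cKO) lines that the submitters call independent, each measured on 1 Affymetrix Mouse Genome 430 2.0 array. Values are signals on the linear scale of the array software MAS5. All 4 lines were grown on irradiated fibroblast feeders in serum with leukaemia inhibitory factor, then passaged on gelatin to clear the feeders before RNA was taken. The labels give neither the alleles, the Cre, nor whether a KO line was derived from a cKO line. The p-values below cover the variation among these 4 arrays and no more, and some of it may be technical. With 2 lines a group, the number of arrays limits the precision of every value.

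ATP released by a cell is cut in steps at its surface. CD39 (Entpd1) removes phosphates to leave AMP, the Enpp enzymes cut ATP to AMP and pyrophosphate, and CD73 turns AMP into adenosine. Adenosine then acts on receptors such as A2B (Adora2b), is taken up through transporters such as ENT1 (Slc29a1) or is turned into inosine by adenosine deaminase (Ada), while tissue-nonspecific alkaline phosphatase (Alpl), whose activity is a classical stain for pluripotent cells, removes phosphate from pyrophosphate and AMP.

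The labels were first checked on the array. Kdm6a read 265 and 198 in KO lines 1 and 2, against 658 and 415 in cKO lines 1 and 2 (log2 fold change -1.17, SE 0.27, adjusted p = 0.0880 in limma). Both KO signals lay under both cKO signals. These are values of the brightest Kdm6a probe set. The next brightest read 153 and 132 in KO lines, against 382 and 267 in cKO lines. A dim probe set had overlapping groups, and the dimmest read higher in KO, with 12.5 and 12.7 in KO lines, against 8.01 and 10.5 in cKO lines. The label check depends on the setting. Kdm6a was called after median centring (limma adjusted p = 0.0091), when KO line 1 was left out (0.0092) and when cKO line 2 was left out (0.0157), and over all alternatives its limma adjusted p ran from 0.0081 to 0.522. Where these probes lie relative to the deletion was not analysed here, so this checks the labels only in part. The filter level was a signal of 77.7. The lower 40% of genes, with mean log2 signals below it, were left out as dim. Of 10 embryonic stem cell markers all 10 were measured above the filter level, and 0 were called in limma. At an unadjusted p under 0.05 there were 3, Sox2, Zfp42 and Esrrb, each higher in KO. Pou5f1, the gene for OCT4, read 10504 and 10179 in KO lines, against 10354 and 11273 in cKO lines. Over all 10916 genes tested, 2.21% were called at an adjusted p under 0.05, 1.57% lower and 0.641% higher in KO. With each array centred on its median 62 genes were higher and 266 lower, or 81.1% lower, against 71.0% lower with the signals as scaled by the authors.

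Nt5e was lower in KO cells than in cKO cells on its brightest probe set, with means 12.1-fold apart. Enpp3 and Slc29a1 averaged higher in KO cells, by 1.53-fold and 1.29-fold. Entpd5, Alpl and Ada had overlapping groups, and Entpd1 was dim. Nt5e read 41.8 and 8.17 in KO lines 1 and 2, against 326 and 277 in cKO lines 1 and 2. Both KO signals were below the filter level, where array signal is close to background, and both cKO signals were above it. The means were 24.98 ± 23.8 in KO and 301 ± 34.5 in cKO (SD, n = 2 each), and the log2 fold change was -3.63 (SE 0.59) on the log2(signal + 4.79) scale.

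The size of this difference is uncertain because the KO signals are close to background, and Nt5e passed the filter through its cKO signals. The lower cKO signal was 6.63-fold above the higher KO signal and 3.57-fold above the filter level. With every signal under the filter level raised to it, a setting added with the data in view, the log2 fold change was -1.89. RNA from whole cultures cannot tell fewer cells with Nt5e from less Nt5e RNA per cell.

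**Figure D1:**
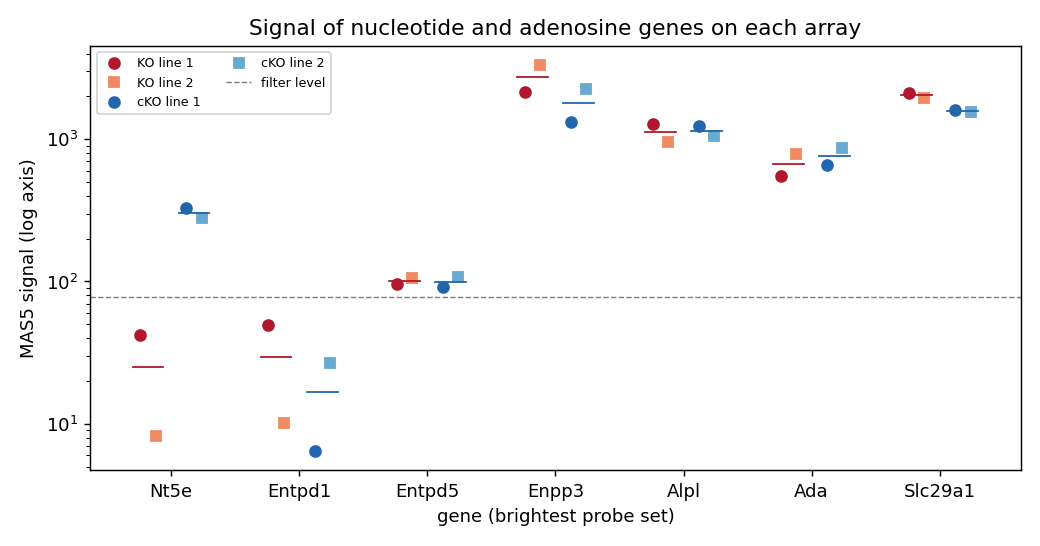
Signal (log axis) of the brightest probe set of each measured gene, with 1 point for each array, KO lines left of cKO lines, short bars at the group means (n = 2) and the filter level dashed. Nt5e reads 41.8 and 8.17 in KO lines against 326 and 277 in cKO lines, and Slc29a1 is the other of the 7 genes whose groups do not overlap.

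Nt5e lies on chromosome 9 and Enpp3 on chromosome 10. Their promoter windows are shown because these genes had the largest differences in opposite directions among those above the filter. Each window runs from 250 bases before to 50 after the start of the gene, 5' to 3' on the strand of the gene (RefSeq, GRCm38.p6), at chr9:88327359-88327658 on the plus strand for Nt5e and chr10:24836146-24836445 on the minus strand for Enpp3. Capitals mark GGGCGG on either strand, the GC box bound by factors of the SP family.
Nt5e: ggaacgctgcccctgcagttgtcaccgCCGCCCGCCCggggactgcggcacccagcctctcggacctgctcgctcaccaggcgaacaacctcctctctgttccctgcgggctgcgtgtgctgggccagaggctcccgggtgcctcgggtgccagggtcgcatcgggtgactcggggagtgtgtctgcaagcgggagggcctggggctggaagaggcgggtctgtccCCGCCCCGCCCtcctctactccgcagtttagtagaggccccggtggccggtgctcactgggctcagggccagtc
Enpp3: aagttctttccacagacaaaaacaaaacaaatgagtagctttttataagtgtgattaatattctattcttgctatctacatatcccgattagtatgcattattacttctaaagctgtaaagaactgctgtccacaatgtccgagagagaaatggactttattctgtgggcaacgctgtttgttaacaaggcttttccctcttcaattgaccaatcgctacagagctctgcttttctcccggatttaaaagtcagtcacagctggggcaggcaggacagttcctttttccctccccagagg

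The Nt5e window held 23 CpG dinucleotides, 71.0% G and C, and 4 matches to GGGCGG in 2 overlapping pairs. The Enpp3 window held 5 CpG, 40.7% G and C, and no GGGCGG. Over 32851 such windows the median was 7 CpG, and 35.7% held GGGCGG. The letters TATAAA, searched on both strands, were absent from the Nt5e window and occurred in 13.6% of all windows. They occurred once in the Enpp3 window, at position -209 from the start and on the strand opposite to the gene. These are matches of letters, and binding was not measured.

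The 3 probe sets of Nt5e disagreed. A dim probe set went the same way as the brightest, with 8.95 and 4.16 in KO lines, against 44.4 and 28.8 in cKO lines. The remaining one read 67.7 and 51.9 in KO lines, against 48.0 and 44.1 in cKO lines, so that its KO signals were the higher. Both dim probe sets stayed below the filter level on every array, and neither was tested in limma.

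Of the genes for nucleotide-cutting enzymes, Entpd1 stayed below the filter level on every array, with 49.3 and 10.0 in KO lines, against 6.44 and 26.8 in cKO lines on its brightest probe set, and its other 2 probe sets read under 6.0. Its groups overlapped, and it was not tested. Entpd5, which encodes a nucleoside diphosphatase of the endoplasmic reticulum that acts on UDP, read 95.8 and 106 in KO lines, against 90.9 and 108 in cKO lines. Its log2 fold change was 0.02 (SE 0.30), and its groups overlapped. Of its other 5 probe sets, all dimmer, the next brightest read 72.1 and 71.2 in KO lines, against 80.9 and 80.1 in cKO lines. The dimmest went the other way, with 41.1 and 40.2 in KO lines, against 19.7 and 10.4 in cKO lines, and the groups overlapped on the other 3.

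Enpp3 (CD203c), a surface enzyme that cuts ATP and other nucleotides, was bright in all lines. Its brightest probe set read 2150 and 3310 in KO lines 1 and 2, against 1319 and 2245 in cKO lines 1 and 2, with means of 2730 ± 821 in KO and 1782 ± 655 in cKO (SD, n = 2 each). The groups overlapped narrowly, and the log2 fold change was 0.63 (SE 0.29). A second bright probe set read 1853 and 2835 in KO lines, against 901 and 1263 in cKO lines, and another 1877 and 2478 in KO lines, against 1005 and 1266 in cKO lines. On both of these the groups were apart, with KO means 2.17-fold and 1.92-fold over the cKO means.

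In each group line 2 read above line 1 on all 3 bright probe sets of Enpp3, by 1.54-fold among KO lines and by 1.70-fold among cKO lines on the brightest. The difference between lines of a group was thus as large as that between the group means on that probe set (1.53-fold). The log2 fold change ran from 0.25 without cKO line 1 to 1.01 without cKO line 2. Of the 2 remaining probe sets, dim on every array, 1 separated the groups, with 44.8 and 38.6 in KO lines, against 18.8 and 17.0 in cKO lines.

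**Figure D2:**
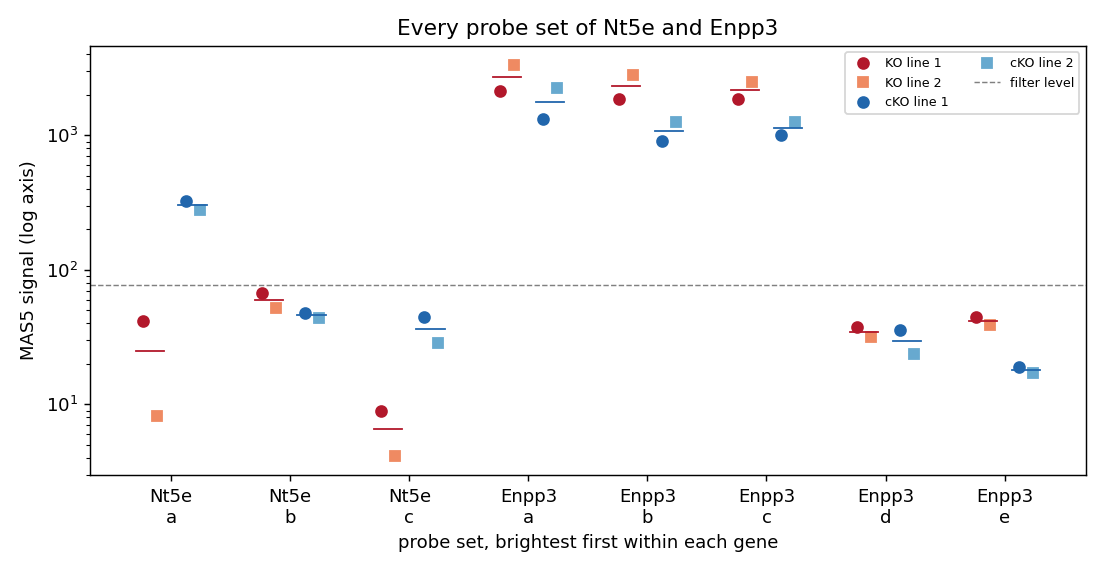
Signal (log axis) of all 3 probe sets of Nt5e and all 5 of Enpp3, lettered from the brightest, with 1 point for each array, KO lines left of cKO lines, bars at the group means (n = 2) and the filter level dashed. Nt5e probe sets a and c are lower in KO lines and b is not, while the 3 bright probe sets of Enpp3 average higher in KO lines and line 2 lies above line 1.

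Alpl, the alkaline phosphatase of stem cells, read 1279 and 956 in KO lines 1 and 2, against 1238 and 1049 in cKO lines 1 and 2. The log2 fold change was -0.04 (SE 0.19), the groups overlapped, and line 1 read above line 2 in both. Ada, which clears adenosine, read 548 and 792 in KO lines, against 661 and 873 in cKO lines, a log2 fold change of -0.20 (SE 0.23). Its groups also overlapped, with line 2 above line 1 in both. Slc29a1, the transporter ENT1, read 2112 and 1957 in KO lines, against 1613 and 1544 in cKO lines. It was 1.29-fold higher in KO by the means of 2035 ± 110 in KO and 1579 ± 48.6 in cKO (SD, n = 2 each), and the groups did not overlap (log2 fold change 0.36, SE 0.14).

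Of the 6 genes tested, 1 was called in limma, Nt5e, beside 2.21% of all genes. The groups did not overlap for 2 of the 6, Nt5e and Slc29a1, beside 42.6% of all genes tested. Since the list was drawn up with this contrast known, nothing is read from these counts. The Nt5e call was lost when no filter was set and when the variance trend was dropped. With a pseudocount of 1, with the mean of all its probe sets and with the lower 60% left out, Nt5e lay below the filter.

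Other genes of nucleotide and adenosine handling were then read from a list of 67, drawn up in 10 roles. Of these 57 had a probe set naming 1 gene and 29 were tested, and 28 lay below the filter. Of the 29 tested, 1 was called lower and 0 higher in KO (limma, adjusted p under 0.05), beside 1.57% and 0.641% of all genes tested, and at an unadjusted p under 0.05 there were 2 lower and 1 higher. The median log2 fold change was 0.0075 over the 29 and 0.0081 over all genes tested, with 15 positive and 14 negative. The groups did not overlap for 12 of the 29, beside 42.6% of all genes tested.

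The called gene was Dpp4 (CD26), a surface peptidase that in humans anchors adenosine deaminase at the membrane. Dpp4 read 69.5 and 96.1 in KO lines, against 241 and 241 in cKO lines. Both KO signals lay far below both cKO signals and close to the filter level. It fell by 1.505 on the log2 scale (SE 0.27, adjusted p = 0.0423 in limma). The call was lost without cKO line 1 (adjusted p = 0.114), without cKO line 2 (adjusted p = 0.125), without a filter (adjusted p = 0.112) and with quantile normalization (adjusted p = 0.0539). Dropping the variance trend gave an adjusted p of 0.0609, and the adjusted p ran from 0.00686 to 0.793 over all alternatives, the highest being that of another Dpp4 probe set. A second Dpp4 probe set read 77.5 and 46.7 in KO lines, against 103 and 66.9 in cKO lines, where the groups overlapped. A dimmer one read 47.7 and 42.4 in KO lines, against 70.1 and 57.3 in cKO lines. The dimmest read 6.85 and 2.71 in KO lines, against 25.8 and 12.9 in cKO lines. On both of these the KO signals were the lower, with every signal below the filter level.

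Of 10 adenosine enzymes and partners 9 were tested, and Ampd1 was below the filter. Apart from Dpp4 they ran from -0.20 (Ahcy) to 0.47 (Ampd3) on the log2 scale. Ampd3, an AMP deaminase, read 212 and 117 in KO lines, against 120 and 106 in cKO lines, with overlapping groups (SE 0.34, adjusted p = 0.646 in limma). Adenosine kinase (Adk), which turns adenosine back into AMP, had a log2 fold change of 0.16 (SE 0.11), purine nucleoside phosphorylase (Pnp) -0.03 (SE 0.10), Hprt -0.02 (SE 0.10) and Aprt -0.04 (SE 0.09). These 6 were chosen as examples after their values were seen. The 5 tested intracellular 5'-nucleotidases, which act on AMP and other monophosphates inside the cell, ran from -0.03 to 0.15 on the log2 scale, with 0 called. The smallest p among them was that of Nt5c (0.15, SE 0.21, adjusted p = 0.848), followed by Nt5c3b (0.09, SE 0.17, adjusted p = 0.885).

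Among the relatives of the surface enzymes 4 were tested, with 0 called and log2 fold changes from -0.12 to 0.50. Enpp4, a phosphodiesterase of the same family as Enpp3, read 320 and 227 in KO lines, against 226 and 158 in cKO lines (0.50, SE 0.27, adjusted p = 0.515), and its groups touched without overlap. Entpd7, an intracellular relative of CD39, differed by 0.34 (log2, SE 0.33, adjusted p = 0.755), with overlapping groups. The other alkaline phosphatases of the list, Alpi, Alppl2 and Akp3, were all below the filter and were not tested.

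Channels and carriers for ATP and pyrophosphate gave the other values of smallest p, though 0 of 4 were called. Ank, which exports pyrophosphate and ATP, read 274 and 268 in KO lines, against 411 and 425 in cKO lines (log2 fold change -0.62, SE 0.18, adjusted p = 0.159). Slc17a9, the vesicular nucleotide transporter that loads ATP, read 509 and 393 in KO lines, against 290 and 331 in cKO lines (0.52, SE 0.20, adjusted p = 0.309). The groups were apart for both, in opposite directions. The phosphate transporters Slc20a1 (-0.20, SE 0.10, adjusted p = 0.48) and Slc20a2 (-0.12, SE 0.14, adjusted p = 0.798) were bright and did not pass.

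Receptors for nucleotides were mostly dim. Of 14 P2 receptors, which sense ATP and related nucleotides, 2 were above the filter, P2rx4 (log2 fold change -0.37, SE 0.37, adjusted p = 0.76) and P2rx7 (0.12, SE 0.34, adjusted p = 0.928). The adenosine receptor A3 (Adora3) was below the filter, with 37.5 and 32.5 in KO lines, against 41.0 and 9.48 in cKO lines. Of the other nucleoside transporters 3 were tested and 0 called, among them Slc29a2 (ENT2, -0.26, SE 0.18, adjusted p = 0.632) and Slc29a3 (ENT3, 0.04, SE 0.21, adjusted p = 0.971).

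**Figure D3:**
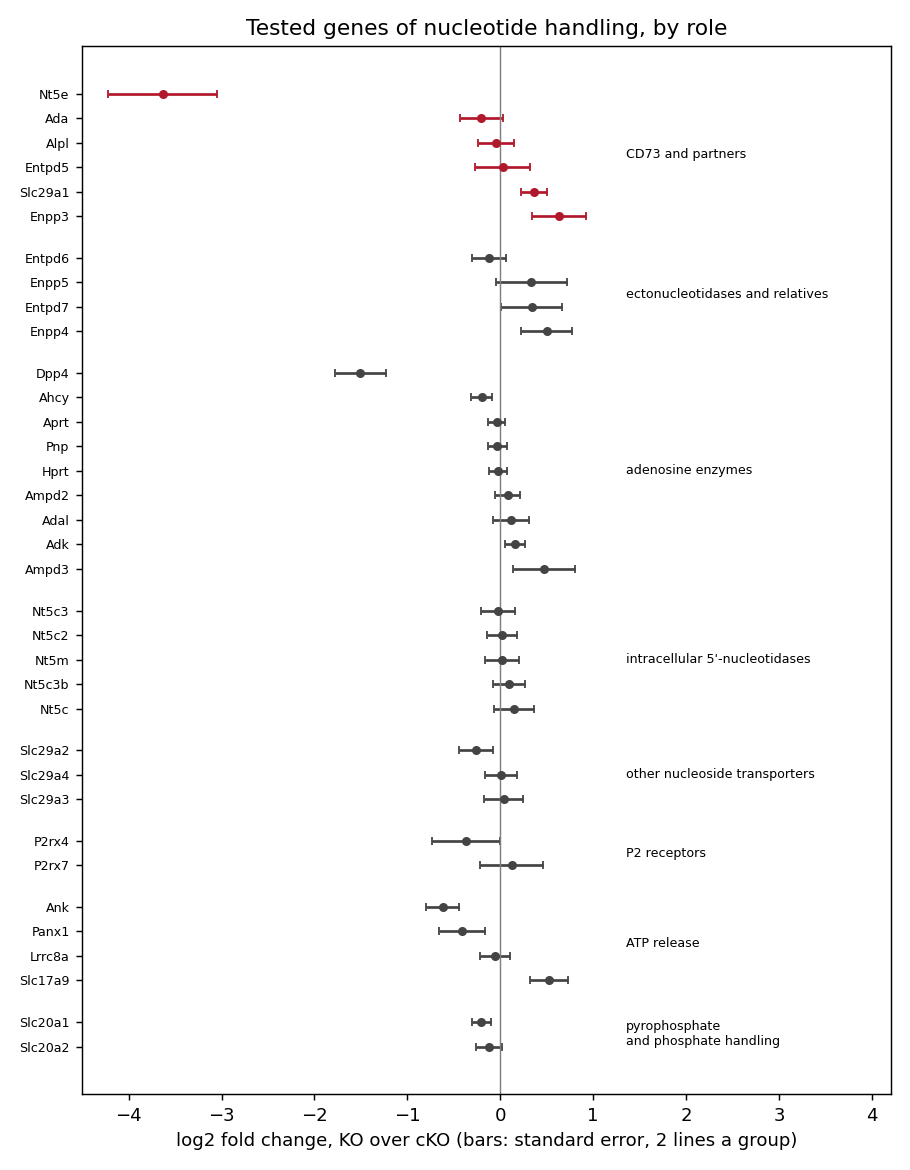
Log2 fold change, KO over cKO, of the 6 tested genes of the CD73 group (red) and the 29 tested genes of the wider list (grey), by role, with standard errors from the fit (2 lines a group). Nt5e at -3.63 and Dpp4 at -1.505 lie apart from the rest, which run from -0.62 to 0.63.

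CD73 is also a surface marker of fibroblasts, so markers of the feeder cells were read beside it. Of 19 fibroblast markers 18 had a probe set, 12 were tested, all 12 had a negative log2 fold change (median -1.01) and 3 were called lower in KO, Tagln, Col5a1 and Thy1, beside 1.57% of all genes tested. Their summed signal was 8331 and 9225 in KO lines 1 and 2, against 23484 and 16270 in cKO lines 1 and 2, most of it from Acta2 and Tagln. Dcn read 67.1 and 61.9 in KO lines, against 186 and 133 in cKO lines, and Col1a1 read 146 and 171 in KO lines, against 618 and 246 in cKO lines. Pdgfra, Pdgfrb, Lum, Twist2, Prrx1 and Col6a1 were below the filter, and of these Prrx1 read higher in KO, with 60.1 and 53.8 in KO lines, against 30.7 and 31.05 in cKO lines.

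The ratio of cKO line 1 to cKO line 2 was 1.18 for Nt5e, and Dpp4 read 241 in both. Over the 12 tested fibroblast markers this ratio ran from 0.797 for Thy1 to 2.52 for Col1a1. It was 1.24 for Loxl1, 1.26 for Tagln, 1.34 for Col5a1, 1.38 for Postn, 1.40 for Dcn and 1.45 for S100a4. For Acta2 it was 1.63, for Col1a2 1.66, for Col3a1 2.07 and for Col6a2 2.23. All but Thy1 were thus above Nt5e. Thy1 read 202 and 157 in KO lines, against 372 and 466 in cKO lines 1 and 2. Between the KO lines, Nt5e read 5.12-fold higher in line 1 than in line 2, with both signals close to background. The summed signal of the fibroblast markers was lower in KO line 1 than in KO line 2 (8331 against 9225). Most of that sum was Acta2 (4163 and 4809) and Tagln (2230 and 2469), and single markers went either way. Of the tested markers Col1a1, Col1a2 and S100a4 also read lower in KO line 1. Col3a1, Col5a1, Col6a2, Thy1, Dcn, Postn and Loxl1 read higher in KO line 1. Without cKO line 1 the log2 fold change of Nt5e was -3.52 and that of Dpp4 -1.51. The part of feeder cells in the differences of Nt5e and Dpp4 was not tested.

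Markers of other cell types were read in the same way. Of 4 tested primitive endoderm markers 2 were called lower, Sparc and Col4a1, and 1 higher, Lama1, beside 1.57% and 0.641% of all genes tested. Gata4, Gata6, Sox7, Sox17 and Foxa2 were below the filter. Of 6 tested trophoblast markers 2 were called lower, Krt8 and Krt18, beside the same 1.57%, and Cdx2 and Elf5 were below the filter. The log2 fold change was negative for 4 of the 6 and positive for 2. Those 2 were Tfap2c, with means of 1799 in KO and 1056 in cKO, and Hand1, with 155 and 125. For both the groups were apart. Of 3 tested endothelial and blood markers 0 were called in limma (2 at an unadjusted p under 0.05). Of those 2, Cd68 averaged higher in KO (1045 against 768 in cKO) and Lyz2 lower (713 against 1518). Tek, the remaining tested marker, also averaged higher in KO. Kdr, Cdh5, Cd34, Ptprc, Itgam and Cd14 were below the filter by their mean log2 signal. Of these Kdr read 180 and 154 in KO lines and 171 in cKO line 1, against 3.52 in cKO line 2. Cd34 in cKO line 2 (114) and Cd14 in cKO line 1 (138) also read above the level. The summed signals of these lists were 4809 and 4927 in KO lines, against 11828 and 10404 in cKO lines for primitive endoderm, 8382 and 5899 in KO lines, against 19914 and 14036 in cKO lines for trophoblast, and 2320 and 2150 in KO lines, against 3455 and 2093 in cKO lines for endothelium and blood. Most of the primitive endoderm sum came from Sparc and Col4a1, matrix genes. Sparc read 2313 and 2478 in KO lines, against 7756 and 7523 in cKO lines. Col4a1 read 848 and 892 in KO lines, against 2373 and 1568 in cKO lines. Lama1 went the other way, with 1063 and 1202 in KO lines, against 626 and 606 in cKO lines. Most of the trophoblast sum came from Krt8 and Krt18, which read 8103 and 9272 in cKO line 1. Lyz2 alone read 2147 in cKO line 1 and 889 in cKO line 2. The part of these cell types in the results above was not tested.

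**Figure D4:**
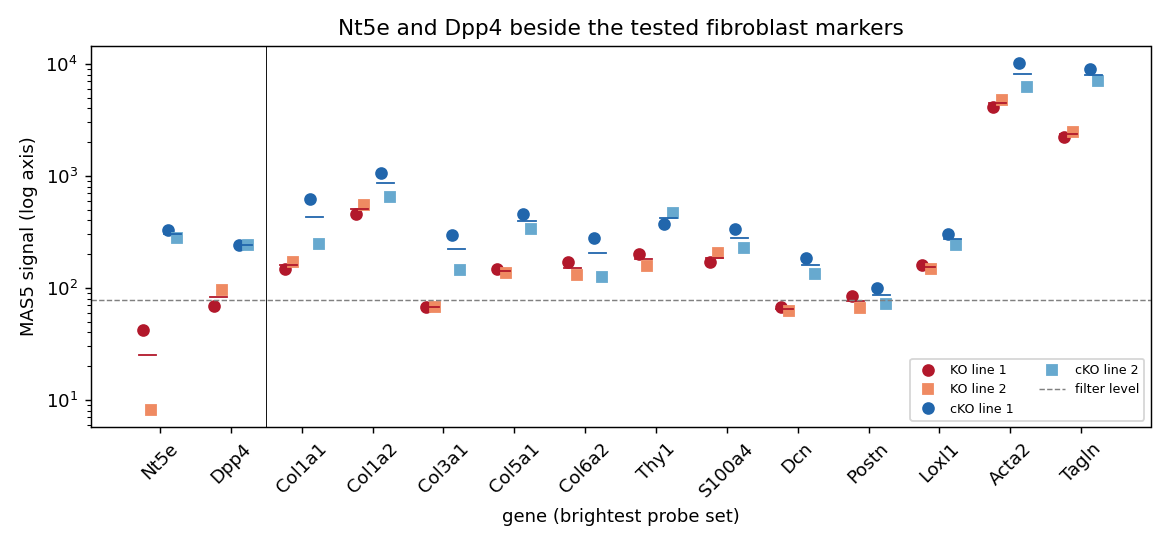
Signal (log axis) of Nt5e and Dpp4, left of the line, beside the 12 tested fibroblast markers, with 1 point for each array, KO lines left of cKO lines, bars at the group means (n = 2) and the filter level dashed. All 12 markers, Nt5e and Dpp4 average lower in KO lines, and the ratio of cKO line 1 to cKO line 2 is 1.18 for Nt5e and 0.797 to 2.52 for the markers.

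The genes whose pattern over the 4 arrays was nearest to that of Nt5e were Srgn (serglycin), Stmn4 (a stathmin), Chst15 (a sulfotransferase), Pmp22 (a peripheral myelin protein) and Gbp2 (a guanylate-binding protein). Likeness was the Euclidean distance between log2 signals centred on each gene's mean, which was 1.34 for Srgn, 1.36 for Stmn4, 1.45 for Chst15, 1.47 for Pmp22 and 1.61 for Gbp2. Srgn read 173 and 62.1 in KO lines 1 and 2, against 757 and 430 in cKO lines, and Pmp22 read 202 and 93.6 in KO lines, against 1634 and 523 in cKO lines. In Srgn, Stmn4, Chst15 and Pmp22, as in Nt5e, KO line 1 lay above KO line 2 and cKO line 1 above cKO line 2. In Gbp2 KO line 1 lay below KO line 2. These genes were picked for likeness over the same 4 arrays, so nothing is read from the shared order. On the brightest probe sets, no other tested gene of the CD73 group had its lines at least 2-fold apart between the groups, so no likeness was computed for them.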

How the data were processed

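RNA of 4 mouse embryonic stem cell lines was measured on 1 array each. The authors deposited linear intensity values, with 1 signal for each probe set. MAS5 is the tool that the submitters' processing notes name; version and settings are not given in the sources used. The trimmed mean was 500 on every array and the median 64.4 to 81.6, so the median was left free by this scaling. Low MAS5 signals are noisy on a log scale. Probe sets assigned to 1 gene took the current symbol through RefSeq (GRCm38.p6) where their Entrez identifier matched (34754 of 34958), and 932 naming several genes were not used. The probe set of highest mean log2 signal stood for a gene.

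Signals were converted to log2(signal + 4.79), 4.79 being the 10th percentile of all values. The lower 40% of genes by mean log2 signal over the 4 arrays were left out. KO and cKO were compared in limma 3.58.1 (R 4.3.3; lmFit, eBayes with trend) over 10916 genes, with Benjamini-Hochberg adjustment, and calls were made below an adjusted p of 0.05. The fit was tested on 20 simulated sets with 200 changed genes each. It called 77.1% of the 2-fold and 99.3% of the 4-fold changes. Of its calls 8.06% fell on unchanged genes, above the 5% aimed at. The simulated noise was normal and drawn independently for each array. Its variances were those that limma had already drawn toward the trend. The shares of changes called may therefore be too high for the real data. Tables and plots used Python 3.11.15, pandas 2.3.3 and matplotlib 3.10.9. The genes and lists were chosen with earlier results of these data known. Named are the 9 genes, Kdm6a, of each role every called gene or up to 2 of smallest p, the 5 genes nearest to Nt5e, and further list members as examples. Alternatives were other pseudocounts, filters, normalizations and summaries of probe sets, no variance trend, the line number as a block and each array left out.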

Additional observations from a re-analysis of the deposited data

How the results depend on the processing

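The Nt5e difference stayed negative in each alternative that tested it, from -4.56 to -2.71 with 1 array left out and -1.89 with signals under the filter level raised to it. All of these alternatives read only the brightest probe set of Nt5e. They therefore do not bear on the disagreement among its probe sets. Enpp3 and Slc29a1 stayed positive throughout (0.25 to 1.01 and 0.31 to 0.42 with 1 array left out), while Ada, Alpl and Entpd5 changed sign between arrays left out. The count of called genes, 241, was 147 without a filter, 157 with the lower 60% left out, 129 with the mean of probe sets, 28 without the variance trend and 228 to 434 with 1 array left out, the highest without KO line 1. On the wider list 0 genes were called in limma without a filter, with the lower 60% left out, with quantile normalization, with the mean of probe sets, with every probe set, without the trend and without either cKO line (1 to 4 at an unadjusted p under 0.05), and 1 without either KO line. Its median, 0.0075, was -0.022 without a filter, -0.024 with the lower 60% left out, -0.0080 with quantile normalization, -0.040 with centring, 0.016 with the mean of probe sets, 0.017 with every probe set and -0.019 to 0.028 with 1 array left out. With the line number as a replicate block 1048 genes were called, 2 of them on the wider list, Dpp4 and Ank. Kdm6a (limma adjusted p = 0.0081) passed the threshold too, as did Enpp3, which was called in no other setting. Nothing is read from the Enpp3 call, since the gene was chosen with this contrast known. The labels do not pair the lines, though the deviations of same-numbered lines correlated over genes (r = 0.52).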

Other observations

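The genes next to Nt5e on chromosome 9 were read after its values were seen. Of the 4 nearest genes with a probe set on each side, 6 were tested and 0 were called in limma (0 at an unadjusted p under 0.05, adjusted p from 0.822 to 0.996), with log2 fold changes from -0.10 to 0.14. Before Nt5e lay Cyb5r4, a reductase, at 1842 in KO and 1860 in cKO (mean signals, log2 fold change -0.02, SE 0.17), and Cep162, a centrosomal protein, at 0.11 (SE 0.26). After it lay Snx14, a sorting nexin (0.14, SE 0.17), Syncrip, an RNA-binding protein (0.0031, SE 0.15), Snhg5, a host gene of small nucleolar RNAs (0.08, SE 0.11), and Zfp949, a zinc finger gene (-0.10, SE 0.31). Tbx18 and Mrap2 were below the filter. Whether these genes differ from Nt5e in their change was not tested.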
